A study of Mus musculus with 15 samples.

Results

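The Ilk-Pinch-Parvin complex is the protein assembly that ties integrins to the actin cytoskeleton, and the genes of the complex and of its integrin and kindlin partners were followed across 3 genotypes of *Tbr1*. The 8 genes were listed by name: *Ilk*, *Lims1* (Pinch1), *Lims2* (Pinch2), *Parva* (alpha-parvin), *Parvb* (beta-parvin), *Rsu1*, *Fermt2* (kindlin-2), and *Itgb1* (integrin beta 1). All 8 were found among the 19475 genes listed in the deposited table, and all 8 were among the 16507 genes with a mean normalized read count of at least 5 that were tested. The complex was chosen by the normalized read counts of *Ilk* in these same embryos, which had been seen to differ between *Tbr1*+/K228E and WT mice. The values of *Ilk* in that comparison are therefore a description, with no test.

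The RNA-Seq samples were 15 embryos of the C57BL/6J background, taken at E16.5. They comprised 5 WT embryos, 5 *Tbr1*+/K228E embryos (labelled hetero, called heterozygous from here on), and 5 *Tbr1*K228E/K228E embryos (labelled homo, called homozygous). Every genotype had 3 females (replicates 1 to 3) and 2 males (replicates 4 and 5). The mutation, K228E in exon 1 of *Tbr1*, was knocked in at the endogenous gene, and the floxed selection cassette of the targeting vector was removed with protamine-Cre, so that every cell of a mutant embryo carried the mutant allele and a heterozygous embryo also kept 1 WT allele. TBR1 is a T-box transcription factor of deep-layer cortical neurons. The labels name the tissue as brain and whole brain and the study's text names it as forebrain. They do not say which embryos were littermates. The p-values set a difference against the spread between these embryos, each taken as independent.

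Integrins are receptors of an alpha and a beta subunit that bind laminins, fibronectin, and other proteins of the extracellular matrix. Talins and kindlins bind the tail of the beta subunit and switch the receptor on, and kindlin-2 recruits ILK, a pseudokinase that acts as a scaffold. ILK binds a Pinch protein through ankyrin repeats at one end and a parvin, which binds actin, at the other end, and RSU1 binds Pinch1. In the embryonic cortex, this linkage is known for anchoring the endfeet of radial glia to the basement membrane under the meninges, and for its roles in blood vessels and their mural cells.

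*Ilk* (ENSMUSG00000030890) is a plus-strand gene at chr7:105736592-105742925 in GRCm38, and it is flanked by genes that are read from the other strand. The exons of *Taf10*, a subunit of the transcription factor TFIID, and those of *Ilk* have 2106 bases in common, which are 76.7% of the 2744 merged exon bases of *Ilk*. They lie in an annotated *Taf10* exon of 3671 bases (105739393 to 105743063). *Rrp8*, a nucleolar methyltransferase, shares a further 355 exon bases (12.9%) at the 5′ end of *Ilk*. The library kit (TruSeq RNA v2) does not mark strand, so that reads from the shared bases cannot be told apart by strand, and the value of *Ilk* depends on how these reads were divided among the genes.

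The stretch just upstream of *Ilk* is shown because *Ilk* is the member on which the comparison turns and because this stretch is itself exonic for the gene on the other strand. The 250 bases before the RefSeq start of *Ilk* (GRCm38.p6, chr7:105736340-105736589, plus strand) all lie in an exon of *Rrp8*. They contain 22 CG dinucleotides, which are in capitals, and 66.4% of the bases are G or C. At least as many CG dinucleotides were found in 14.8% of 32851 RefSeq promoter stretches of this length, whose median was 6.
Ilk upstream: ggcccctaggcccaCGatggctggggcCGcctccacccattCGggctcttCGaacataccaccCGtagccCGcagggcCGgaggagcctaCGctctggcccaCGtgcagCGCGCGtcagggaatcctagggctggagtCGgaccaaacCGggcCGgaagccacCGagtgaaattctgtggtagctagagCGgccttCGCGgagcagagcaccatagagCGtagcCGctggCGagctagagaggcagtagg

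The letters GGTGTGA, the half-site of T-box factors, and their reverse complement TCACACC were searched in RefSeq promoter stretches from 250 bases before to 50 bases after a start. Of the 8 members, 6 had entries in the RefSeq promoter table, with 9 stretches in all, and none of the 9 held these letters. Of all 32851 stretches, 1307 (3.98%) held them.

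In the heterozygous embryos *Ilk*, which was not tested there, had higher values than in the WT embryos. The normalized read count of *Ilk* in the 5 WT embryos was 2377, 2400.4, 2300.1, 2420.0, and 2164 in replicates 1 to 5. In the 5 heterozygous embryos it was 2504, 2712, 2555, 2574, and 2764, and in the 5 homozygous embryos it was 2419.8, 2423, 2459, 2452, and 2623. Each heterozygous embryo lay above each WT embryo, with the nearest values at 2504 and 2420.0. In homozygous mice, 4 of the 5 embryos lay above all WT embryos, and replicate 1 (2419.8) lay just under the highest WT value. Because the tissue was measured in bulk, fewer cells of a type and less RNA per cell cannot be told apart in this or any of the comparisons that follow.

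The mean of *Ilk* was 2332 ± 105 in WT, 2622 ± 110.5 in heterozygous, and 2475 ± 84.2 in homozygous mice (SD, n = 5 each). Heterozygous embryos exceeded WT embryos by a log2 fold change, on the scale of log2(normalized read count + 1), of 0.17 (standard error 0.041), a mean 12.4% higher. It stayed positive in 22 of 22 other settings of the fit, from 0.14 to 0.19. Leaving out an embryo could not turn this sign, because each heterozygous embryo lay above each WT embryo. Across the 16507 genes, 0 passed an adjusted p of 0.05 in this comparison (0% called, limma with Benjamini–Hochberg correction, smallest adjusted p = 0.999), 295 (1.79%) had an unadjusted p under 0.05, and the embryos did not overlap in 43 (0.26%), with the heterozygous embryos the higher ones in 17 (0.103%). *Ilk*, 1 of the 8 members, was among these 17, as its choice entails. The study tested these embryos with DESeq2 and an empirically estimated null. It called 5 genes here, *Ilk* among them as higher. Its qRT-PCR did not bear out the 5, although the directions were alike. The count of 0 is that of limma on this scale and does not show that no gene differs.

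Between homozygous and WT embryos, *Ilk* had a log2 fold change of 0.09 (standard error 0.041). Relative to heterozygous mice, *Ilk* differed by -0.08 (standard error 0.041), with 4 of the 5 homozygous embryos below all heterozygous embryos. Both comparisons reuse embryos whose *Ilk* values chose the complex, so that these values too are a description, with no test.

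**Figure D1:**
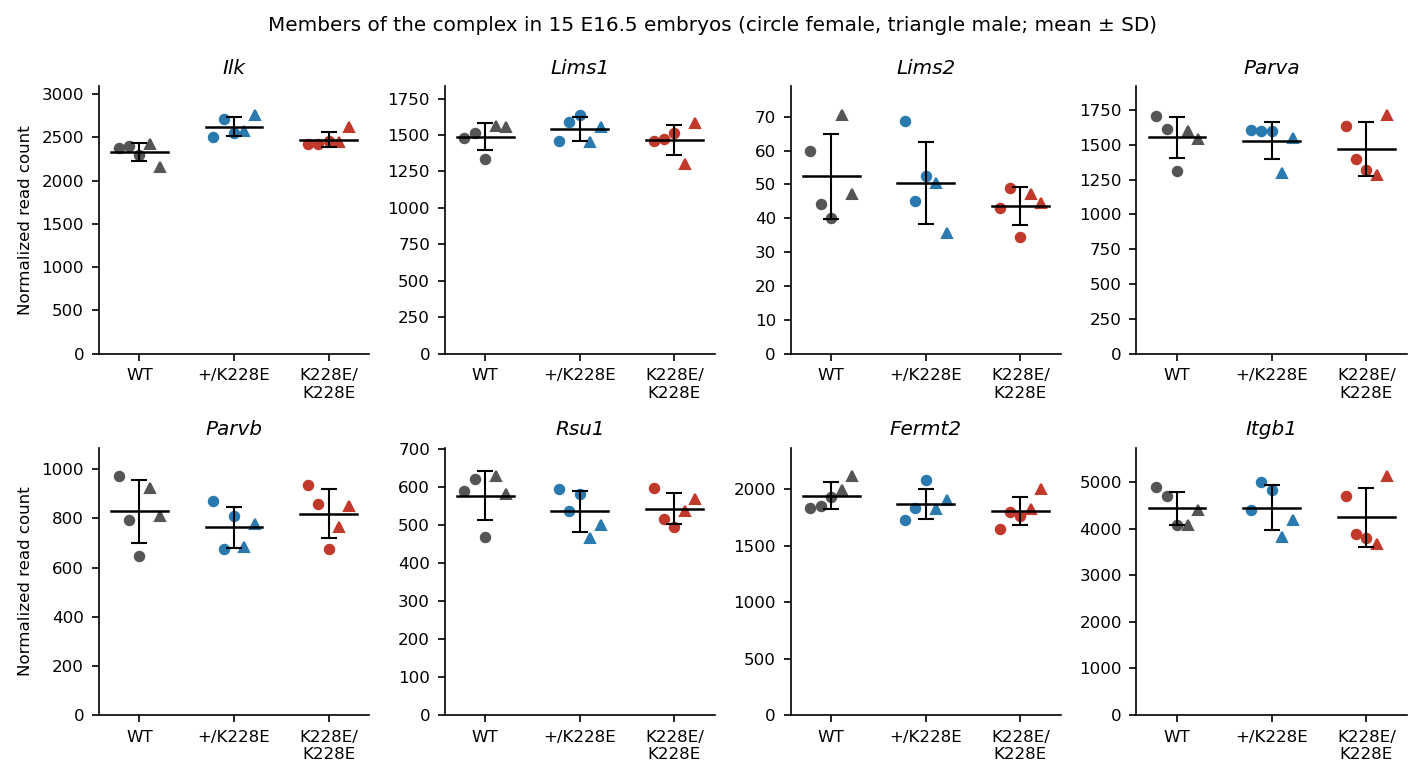
Normalized read count (vertical axes, from 0) of each member in every embryo, by genotype (+/K228E is heterozygous, K228E/K228E homozygous). Circles are females, triangles are males, and bars show the mean ± SD of 5 embryos. The 5 heterozygous embryos lie above the 5 WT embryos for *Ilk*, and the genotypes overlap for each of the other 7 genes.

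Neither gene that shares exon bases with *Ilk* separated the genotypes. The normalized read count of *Taf10* was 1350.3, 1397, 1361, 1069, and 1249 in WT replicates 1 to 5, and 1222, 1182, 1259, 1256, and 1207 in heterozygous replicates 1 to 5. The heterozygous embryos all lay within the WT range for *Taf10*. Against WT, *Taf10* had a log2 fold change of -0.06 (standard error 0.067, two-sided exact permutation p = 0.444, where the smallest that 5 against 5 embryos allow is 0.00794) in heterozygous and -0.06 (exact permutation p = 0.468) in homozygous mice, and *Rrp8* had -0.05 (exact permutation p = 0.452) in heterozygous mice.

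Summed over both genes, which removes any division of reads between them, *Ilk* plus *Taf10* gave 3618 ± 162 in WT, 3847 ± 91.7 in heterozygous, and 3703 ± 141 in homozygous mice (SD, n = 5 each). For this sum the WT and heterozygous embryos overlapped, with a highest WT value of 3797 in replicate 2 and a lowest heterozygous value of 3726 in replicate 1. *Ilk* made up 64.5% ± 2.74 of the sum in WT, 68.1% ± 1.36 in heterozygous, and 66.9% ± 1.39 in homozygous mice (SD, n = 5 each). WT replicate 4, which had the lowest *Taf10* value, was the WT embryo with the highest *Ilk* share (69.4%), and the other 4 WT embryos lay between 62.8% and 63.8%, below all heterozygous embryos (67.0% to 69.6%). With WT replicate 4 the shares of the WT and heterozygous embryos overlapped. The sum and the share contain the *Ilk* values that chose the complex, so that both are a description, with no test. With *Rrp8* also added, the sum was 4136 ± 203 in WT, 4346 ± 103 in heterozygous, and 4200 ± 162 in homozygous mice (SD, n = 5 each). For it too the WT (3870 to 4349) and heterozygous (4192 to 4462) embryos overlapped. The part of the sharing of reads in the *Ilk* difference was not tested.

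**Figure D2:**
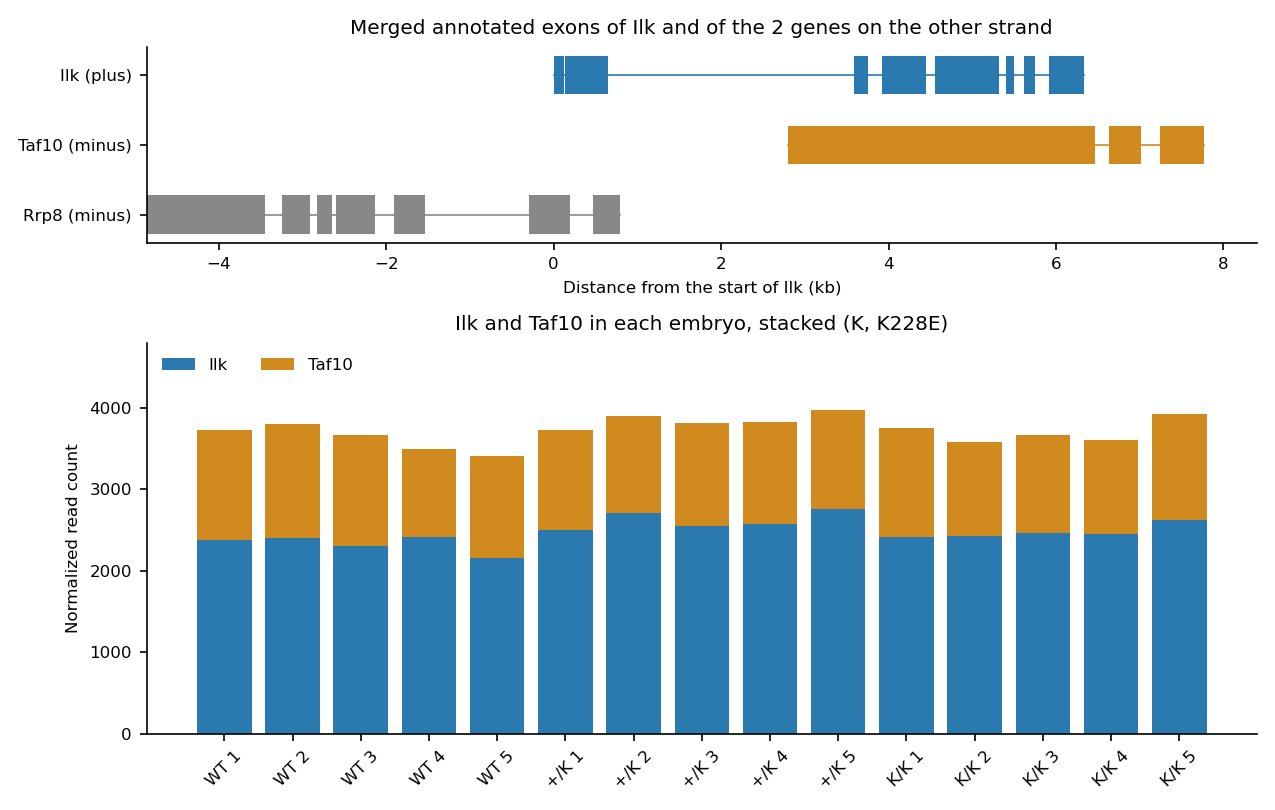
The upper panel shows the merged annotated exons of *Ilk* (plus strand) and of *Taf10* and *Rrp8* (minus strand) by distance from the start of *Ilk* in kb, and most *Ilk* exon bases fall within the long *Taf10* exon. The lower panel stacks the normalized read counts of *Ilk* and *Taf10* in each embryo (K stands for K228E), and the stacks of the WT (3413 to 3797) and heterozygous (3726 to 3971) embryos overlap.

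The Pinch genes encode LIM-domain adaptors that bind ILK, and *Lims1* (chr10:58323466-58424691, plus strand) was the more abundant one. Its normalized read count was 1480.4, 1515, 1338, 1560.0, and 1553 in WT, 1456, 1589, 1639.9, 1453, and 1558 in heterozygous, and 1457, 1475, 1517, 1301, and 1579 in homozygous replicates 1 to 5. The 3 genotypes overlapped, and the lowest values were those of WT replicate 3 and homozygous replicate 4. Against WT, *Lims1* had a log2 fold change of 0.05 (95% interval from -0.08 to 0.17, exact permutation p = 0.405) in heterozygous and -0.02 (exact permutation p = 0.651) in homozygous mice.

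*Lims2* (chr18:31922290-31958619, plus strand) was low, with normalized read counts of 59.9, 44.1, 40.0, 70.6, and 47.3 in WT, 68.9, 45.1, 52.5, 50.4, and 35.5 in heterozygous, and 43.0, 48.9, 34.6, 47.2, and 44.6 in homozygous replicates 1 to 5. The highest values were those of WT replicate 4 and heterozygous replicate 1. These 2 embryos also had the highest summed normalized read counts of the 17 listed Hox genes (3276 and 3961), markers of the hindbrain and spinal cord, against 4.87 to 1145 in the other 13 embryos, and the part of hindbrain tissue in the *Lims2* values was not tested. For *Lims2* the log2 fold change was -0.05 (95% interval from -0.47 to 0.36, exact permutation p = 0.794) in heterozygous and -0.24 (95% interval from -0.65 to 0.18, exact permutation p = 0.230) in homozygous mice. With the Hox score as a covariate these values were 0.06 and -0.10. Of the exon bases of *Lims2*, 188 (6.14%) are shared with *Gpr17* on the other strand, an oligodendrocyte precursor receptor, whose log2 fold changes were -0.19 in both mutant genotypes (exact permutation p = 0.508 and 0.556).

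The parvins bind ILK through a calponin homology domain and contact actin, paxillin, and regulators of Rac. *Parva* (chr7:112427505-112591692, plus strand) had normalized read counts of 1706, 1618, 1312, 1597, and 1541 in WT, 1608, 1599, 1602, 1295, and 1548 in heterozygous, and 1633, 1395, 1323, 1285, and 1717 in homozygous replicates 1 to 5. The genotypes overlapped over almost their whole range, and 1 to 3 embryos of each genotype stood low. *Parva* differed from WT by -0.02 on the log2 scale (exact permutation p = 0.675) in heterozygous and -0.08 (95% interval from -0.28 to 0.11, exact permutation p = 0.468) in homozygous mice.

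*Parvb* (chr15:84232043-84315688, plus strand) ranged from 646 to 972 (median 809.9) in WT, from 675 to 871 (median 779) in heterozygous, and from 677 to 938 (median 853) in homozygous embryos. Both mutant ranges fell within the WT range. For *Parvb* the log2 fold change was -0.11 (95% interval from -0.35 to 0.13, exact permutation p = 0.389) in heterozygous and -0.01 (exact permutation p = 0.921) in homozygous mice. *Rsu1*, which encodes the leucine-rich repeat protein that binds Pinch1 (chr2:13076821-13271415, minus strand), ranged from 467 to 628 (median 589.9) in WT, from 466 to 594 (median 537) in heterozygous, and from 494 to 598 (median 536) in homozygous embryos. *Rsu1* had log2 fold changes of -0.11 (exact permutation p = 0.333) in heterozygous and -0.08 (exact permutation p = 0.381) in homozygous mice, and the ranges overlapped.

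*Fermt2* encodes kindlin-2, which activates beta 1 integrins and brings ILK to them (chr14:45458795-45530118, minus strand). Its normalized read counts were 1830.3, 1848, 1929.8, 1994, and 2117 in WT, 1726, 1834, 2083, 1823, and 1901 in heterozygous, and 1648, 1799, 1767, 1822, and 2003 in homozygous replicates 1 to 5. In homozygous mice 4 of the 5 embryos lay below all WT embryos, and replicate 5 lay among the higher WT values. Against WT, *Fermt2* had a log2 fold change of -0.11 (95% interval from -0.23 to 0.021, exact permutation p = 0.111) in homozygous and -0.05 (exact permutation p = 0.381) in heterozygous mice, and neither passed a test.

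*Itgb1* encodes the beta subunit shared by many receptors for laminin and fibronectin (chr8:128685654-128733200, plus strand). Its normalized read counts were 4895, 4696, 4089, 4090.4, and 4413 in WT, 4406, 5009, 4842, 3819, and 4188 in heterozygous, and 4715, 3899, 3809, 3681, and 5131 in homozygous replicates 1 to 5. In homozygous mice, replicates 2 to 4 lay below all WT embryos and replicate 5 lay above them. *Itgb1* had a log2 fold change of 0.0021 (95% interval from -0.20 to 0.21, exact permutation p = 0.992) in heterozygous and -0.07 (95% interval from -0.28 to 0.13, exact permutation p = 0.508) in homozygous mice.

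Of the 7 members other than *Ilk*, 2 had a positive and 5 a negative log2 fold change in heterozygous mice against WT, with a median of -0.05 and a range from -0.11 to 0.05. Over all genes tested, 48.8% had a positive log2 fold change and the median was -0.0021. None of the 7 passed an adjusted or an unadjusted p of 0.05 in this comparison (smallest unadjusted p = 0.258, limma), and in none did the embryos separate. The shares over all genes were 1.79% for the unadjusted p and 0.26% for the separation. In homozygous mice against WT all 7 had a negative log2 fold change, from -0.24 to -0.01 with a median of -0.08, where 48.7% of all genes were positive and the median was -0.0023.

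Again none of the 7 passed in homozygous mice (smallest unadjusted p = 0.0970 for *Fermt2*, limma, adjusted p = 0.99996 with Benjamini–Hochberg correction). Among all genes in that comparison, 21 (0.127%) passed the adjusted threshold, 534 (3.23%) had an unadjusted p under 0.05, and the embryos of 98 (0.594%) did not overlap. The signs of the 7 genes were kept when the values were rescaled with TMM factors or to the upper quartile. They were not all kept when markers of other tissues were covariates, since *Lims1* and *Parvb* moved to 0.00083 and 0.04 with the meningeal score and to 0.0052 and 0.05 with the mural score. The values of *Parva*, *Rsu1*, and *Itgb1* stayed negative with the mural score but shrank, to -0.01, -0.03, and -0.0028. Single embryos also turned signs, since *Lims1* was at 0.02 without homozygous replicate 4, and *Parvb* was at 0.05, 0.03, 0.05, and 0.0086 without WT replicate 1, WT replicate 4, homozygous replicate 3, and homozygous replicate 4. Between heterozygous and WT embryos, *Lims2*, *Parva*, and *Itgb1* likewise changed sign without some single embryos, within -0.17 to 0.06, -0.08 to 0.04, and -0.04 to 0.06.

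Between the mutant genotypes, *Parvb* (log2 fold change 0.10, standard error 0.11) and *Rsu1* (0.02, standard error 0.090) were higher in homozygous mice, and the other 6 members, *Ilk* among them, were lower, from -0.18 for *Lims2* to -0.05 for *Fermt2*, where 50.2% of all genes were positive. Some of these signs also depended on the setting. *Parva* and *Itgb1* were at 0.03 and 0.02 with the meningeal score and at 0.01 and 0.00076 with the mural score, *Rsu1* ranged from -0.03 (without heterozygous replicate 4) to 0.10, and *Parvb* went to 0.20 with the meningeal score. *Ilk* was not tested here, and none of the differences of the other 7 members passed a test (smallest exact permutation p = 0.286). Among all genes, 13 (0.0788%) passed the adjusted threshold, 544 (3.3%) had an unadjusted p under 0.05, and 145 (0.878%) had no overlap between embryos. Each pair of these comparisons shares the embryos of a genotype, so that the 3 sets of values are not independent. Effects in males and females were compared by 16 interaction terms, and none passed (smallest unadjusted p = 0.05585 for *Rsu1* in heterozygous mice, adjusted p = 0.7335, limma).

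**Figure D3:**
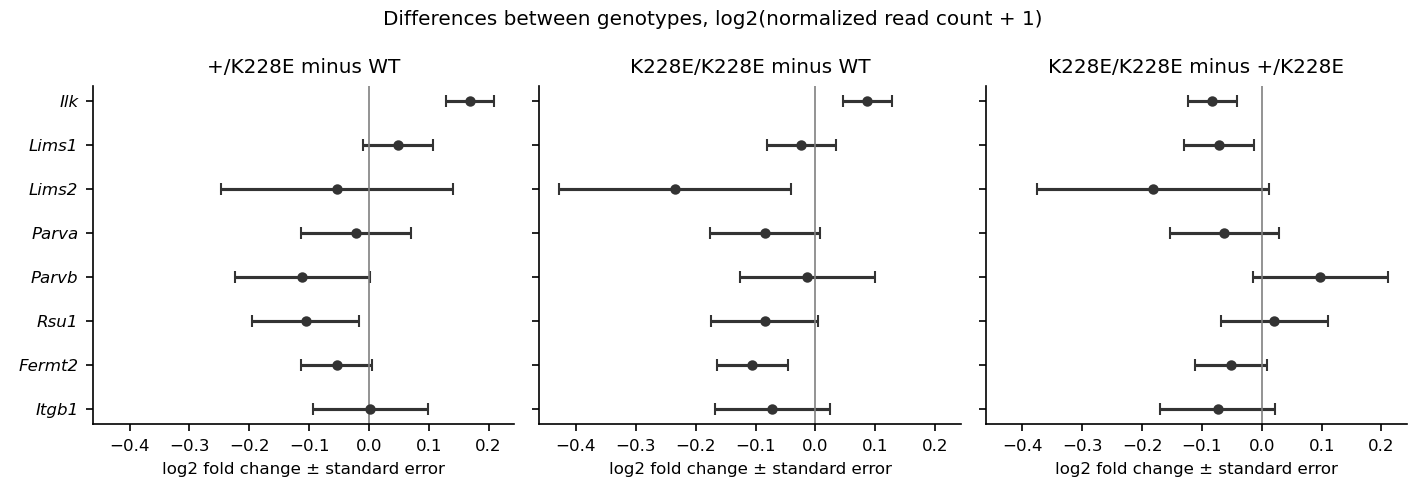
Difference between genotypes for each member as a log2 fold change of normalized read count + 1 (horizontal axes), with bars of ± 1 standard error from the fit over all genes. *Ilk* lies at 0.17 between heterozygous and WT embryos, the comparison that chose it, and the other 7 points lie below 0 for homozygous mice against WT.

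Members were set against each other per length, as normalized read count per kb of summed exon length over all 15 embryos. *Itgb1* (1073 ± 117, SD, n = 15) and *Ilk* (902 ± 56.0) were the highest, and their ranges overlapped. *Fermt2* (361 ± 25.1) and *Lims1* (306 ± 18.7) followed with overlapping ranges, then *Parvb* (182 ± 23.1) and *Parva* (150 ± 15.1), again overlapping, then *Rsu1* (59.3 ± 5.75) and *Lims2* (16.0 ± 3.46). *Ilk* lay above 90.2% and *Itgb1* above 92.3% of the tested genes on this scale. Over the longest annotated transcript in place of the summed exons, *Parva* (259) passed *Parvb* (212), whereas the other positions in the order held.

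Within each pair of paralogs, the mean balance of either mutant genotype differed from that of WT mice by less than the WT SD. The level of *Lims1* per kb was 18.5 ± 3.55 times that of *Lims2* in WT, 20.1 ± 5.24 times in heterozygous, and 21.4 ± 3.90 times in homozygous mice (SD, n = 5 each). The ratio of *Parva* to *Parvb* per kb was 0.822 ± 0.064 in WT, 0.876 ± 0.090 in heterozygous, and 0.784 ± 0.075 in homozygous mice. Among 26 integrin subunit genes, *Itgb1* had the highest level per kb, followed by *Itgb5* (250.8), *Itga3* (227), *Itga6* (183), and *Itgb8* (137), and its lowest embryo (902) lay above the highest embryo of *Itgb5* (296).

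The members differed in how far they varied from embryo to embryo. The coefficient of variation of *Ilk* was 4.48%, 4.21%, and 3.40% in WT, heterozygous, and homozygous mice, whereas that of *Itgb1* was 8.11%, 10.8%, and 15.1%, and that of *Lims2* was 24.1%, 24.2%, and 12.7%. Log2 values centred within each genotype were therefore compared between members over the 15 embryos, by permutation within genotype (100000 draws), with Benjamini–Hochberg correction over the 28 pairs. Of the 28 pairs, 4 passed by both Pearson's r and Spearman's rho, and all 4 joined *Parva*, *Parvb*, *Rsu1*, and *Itgb1*.

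*Parva* and *Itgb1* had the closest relation (r = 0.88, permutation p = 0.00011, adjusted p = 0.00308, and rho = 0.88, permutation p = 0.00061, adjusted p = 0.0146). Without the 2 embryos farthest from the median of *Parva*, r was again 0.88. *Parva* and *Rsu1* gave r = 0.80 (permutation p = 0.00159, adjusted p = 0.0223) and rho = 0.80 (permutation p = 0.00104, adjusted p = 0.0146), with r = 0.63 without the 2 farthest embryos. *Parva* with *Parvb* (r = 0.74, permutation p = 0.00381, adjusted p = 0.0267, rho = 0.72, permutation p = 0.00551, adjusted p = 0.0386) and *Parvb* with *Rsu1* (r = 0.78, permutation p = 0.00321, adjusted p = 0.0267, rho = 0.76, permutation p = 0.00321, adjusted p = 0.0300) fell to 0.60 and 0.59 in the same way. *Ilk* had r between -0.17 and 0.35 with the other 7 members, and none of these relations passed. The differences between these correlations were not tested.

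Marker genes of other tissues varied between the embryos, and the members that were correlated with each other were correlated with these markers too. The mean log2 value of 13 meningeal fibroblast genes was 4.72, 5.38, and 5.39 in WT replicate 3 and homozygous replicates 3 and 4 and 7.51 to 9.85 in the other 12 embryos. The mean log2 value of 9 pericyte and mural cell genes (all listed, none at 0 in all embryos) ranged from 7.87 to 9.32 in WT, from 8.25 to 9.22 in heterozygous, and from 7.97 to 9.35 in homozygous mice, with summed normalized read counts of 5320.2 to 8780.5, 5999.7 to 8663, and 5210 to 9463. Neither score passed a test of its difference from WT mice (exact permutation p = 0.937 and 0.516 for the mural score, 0.754 and 0.659 for the meningeal score).

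With the mural score, *Parva* had r = 0.95 (permutation p = 3e-05, adjusted p = 0.00064 over 64 relations of 8 scores with 8 members) and rho = 0.91 (permutation p = 8e-05, adjusted p = 0.00128), and r = 0.93 without the 2 farthest embryos. *Itgb1* had r = 0.87 (permutation p = 5e-05, adjusted p = 0.0008), rho = 0.89 (permutation p = 3e-05, adjusted p = 0.00128), and r = 0.90 without the 2 farthest embryos. *Rsu1* had r = 0.82 (permutation p = 0.00174, adjusted p = 0.0108), rho = 0.72 (permutation p = 0.0049, adjusted p = 0.0241), and r = 0.77 without them. *Ilk* (r = 0.27, permutation p = 0.357, adjusted p = 0.544) and *Fermt2* (r = 0.05, permutation p = 0.858, adjusted p = 0.886) had no relation that passed. Whether vessels, meninges, or other tissues account for the relations between members was not tested.

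**Figure D4:**
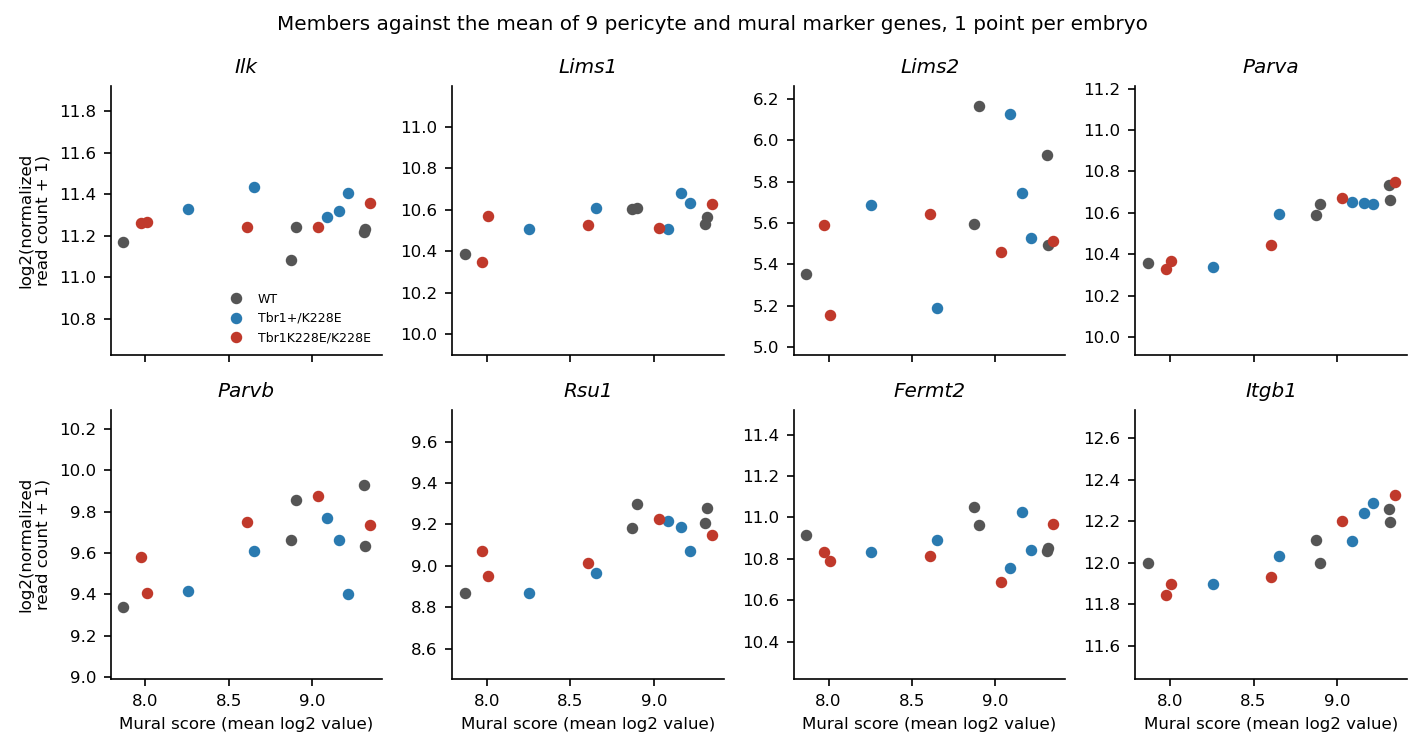
Log2(normalized read count + 1) of each member (vertical axes, all of the same span) against the mean log2 value of 9 pericyte and mural marker genes (horizontal axes), with 1 point per embryo colored by genotype. *Parva* and *Itgb1* rise along the marker score (r = 0.95 and 0.87 within genotype), and *Ilk* has r = 0.27.

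Of the 64 relations, 20 passed by Pearson's r, 16 of them also by rho, and none of the 20 involved *Ilk* or *Fermt2*. Those that passed included the endothelial score with *Parva* (r = 0.92, permutation p = 0.00019, adjusted p = 0.00203), and negative relations of the forebrain neuron score with *Parvb* (r = -0.74, permutation p = 0.00653, adjusted p = 0.0246) and *Lims2* (r = -0.67, permutation p = 0.00705, adjusted p = 0.0251). The microglia, blood, and choroid plexus scores also passed with *Parva* (r = 0.77, 0.80, and 0.81) and with *Itgb1* (r = 0.86, 0.87, and 0.72). Scores of several tissues thus passed with both members, and the part of each tissue in these relations was not tested. With the radial glia and forebrain neuron scores neither member passed. Within the 12 embryos with a meningeal score of at least 6, the meningeal score was related to *Itgb1* (r = 0.95, permutation p = 0.00023, adjusted p = 0.00184 over 8 members) and to *Parva* (r = 0.86, permutation p = 0.001, adjusted p = 0.004), and *Ilk* had r = 0.17 (permutation p = 0.606, adjusted p = 0.808). *Rsu1* (r = 0.70, permutation p = 0.0517, adjusted p = 0.138) and *Parvb* (r = 0.24, permutation p = 0.505, adjusted p = 0.808) did not pass within these 12. Over all 15 embryos their r with this score was 0.79 and 0.75.

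The genes whose centred log2 values most resembled those of each member were taken from 13542 genes with a mean of at least 50, with Pearson's r over the 15 embryos as a description. *Ilk* was most like *Mbnl1* (r = 0.79), *Hif1a* (0.77), and *Paip1* (0.76), the lowest leading values of the 8 members. *Parva* was most like *Il10rb*, *Cd93*, and *Itga5* (r = 0.97 each), and *Itgb1* was most like *Phactr2* (0.98), *Plin3* (0.97), and *Sh3pxd2a* (0.97). *Lims1* was led by *Spp1* (0.91), *Lims2* by *Gpx3* (0.91), *Parvb* by *Myl6* (0.94), *Rsu1* by *Trim47* (0.93), and *Fermt2* by *Gabra2* (0.88). *Spp1* (osteopontin) and *Itga5*, the alpha subunit of the fibronectin receptor, are themselves an integrin ligand and a partner of *Itgb1*.

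The wider integrin pathway was described by 6 lists with 105 genes, 102 of which were tested. Genes of the lists are named for their small p-values in these same embryos. The permutation p-values beside them are therefore a description. Between heterozygous and WT embryos 58 of the 102 genes had a positive and 44 a negative log2 fold change, with a median of 0.02, where 48.8% of all genes were positive. Of the 102, 0 passed the adjusted threshold (limma with Benjamini–Hochberg correction), as over all genes. No gene of the lists separated the genotypes, where 0.26% of all genes did. At an unadjusted p of 0.05, 2 of the 102 genes were lower, where 1.01% of all genes were lower at that p. They were *Itgav*, the alpha subunit of vitronectin receptors (normalized read count 725 ± 79.1 in WT and 618 ± 60.7 in heterozygous mice, SD, n = 5, log2 fold change -0.23, exact permutation p = 0.0556), and *Tnc*, the matrix glycoprotein tenascin C (8578 ± 685 and 7658 ± 784, -0.17, exact permutation p = 0.0952).

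By list in heterozygous mice, the positive genes were 8 of 17 integrin alpha subunits, 1 of 6 other beta subunits, 8 of 14 kindlins, talins, and regulators, 14 of 19 binding partners of the complex, 15 of 22 focal adhesion kinases and adaptors, and 12 of 24 ligands and basement membrane genes. The list medians lay between -0.11 for the beta subunits and 0.03 for the focal adhesion genes. Among the binding partners, *Arhgef6* (alpha-PIX, a Rac regulator that binds parvins) had a log2 fold change of 0.26 (exact permutation p = 0.127) and *Tmsb4x* (thymosin beta 4, an actin-binding peptide) 0.11 (exact permutation p = 0.286). Among the kindlins, talins, and regulators, *Tln1* (talin 1) had 0.07 (exact permutation p = 0.135). *Dok1*, which competes with talin for the integrin tail, had 0.34 (exact permutation p = 0.151) at low means of 26.1 in WT and 33.3 in heterozygous mice.

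Between homozygous and WT embryos 33 of the 102 genes had a positive and 69 a negative log2 fold change, with a median of -0.04, where 48.7% of all genes were positive. The signs come from the same embryos and are not independent. Again 0 passed the adjusted threshold (limma with Benjamini–Hochberg correction), where 0.127% of all genes did. At an unadjusted p of 0.05, 2 genes were higher and 1 was lower, where the shares over all genes were 1.48% and 1.76%, and all 3 overlapped between genotypes. The permutation p-values of these 3 genes reuse the embryos that chose them, so that they are a description. *Itgb1bp1* (ICAP1, which binds the tail of integrin beta 1) was 379 ± 30.5 in WT and 423 ± 19.1 in homozygous mice (SD, n = 5, log2 fold change 0.16, exact permutation p = 0.0397). *Tmsb4x* had a log2 fold change of 0.18 (exact permutation p = 0.135). *Ptk2b* (Pyk2, a relative of focal adhesion kinase) was 161 ± 33.6 in WT and 105 ± 43.3 in homozygous mice (log2 fold change -0.69, exact permutation p = 0.0476).

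The integrin ligands and basement membrane genes had the lowest median of the larger lists in homozygous mice, at -0.15 against -0.0023 over all genes, and 19 of the 24 genes were negative. They included *Lamb2* (laminin beta 2, log2 fold change -0.41, exact permutation p = 0.190) and *Thbs1* (thrombospondin 1, -0.19, exact permutation p = 0.190). An unadjusted p under 0.05 was found for 0 of the 24 and for 3.23% of all genes. The 3 embryos with low meningeal scores were WT replicate 3 and homozygous replicates 3 and 4, and the part of the meninges in these values was not tested. All 6 of the other integrin beta subunits were also negative, from -0.65 for *Itgb4*, the partner of alpha 6 in hemidesmosomes, to -0.05. Their median was -0.19, and none of the 6 passed.

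**Figure D5:**
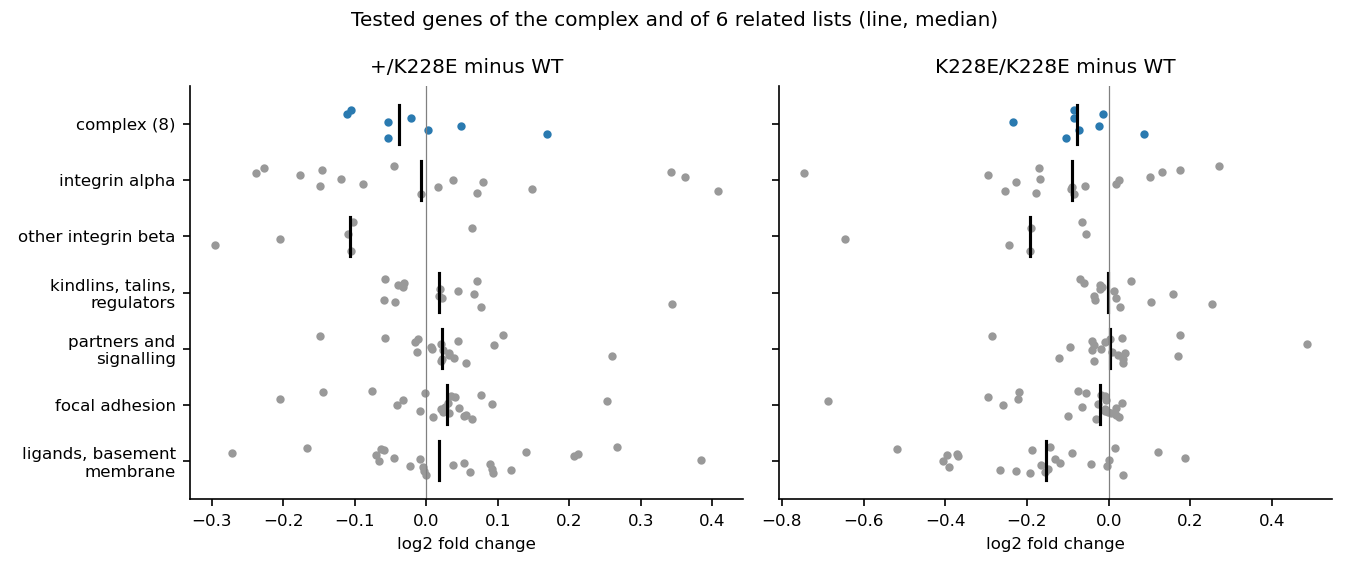
Log2 fold change (horizontal axes) of each tested gene of the complex (blue) and of 6 related lists (gray) against WT, with a black line at the median of each list. The medians in heterozygous mice lie between -0.11 and 0.03, and in homozygous mice the ligand and basement membrane genes have a median of -0.15.

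The values of the whole data set that bear on these results are few. The normalized read counts summed to between 30.5 M and 31.8 M per embryo (M for mega), which reflects the scaling and not the depth. *Tbr1* ranged from 2097 to 4871 in WT, from 4738 to 8543 in heterozygous, and from 7148 to 16015 in homozygous embryos, in the order of the mutant allele number. The mean log2 value of 9 forebrain neuron genes was at least 12.8 in all embryos, and the 17 Hox genes summed to at most 53.7 in 9 of the 15 embryos.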

How the data were processed

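Total RNA from 15 E16.5 embryos was sequenced with paired-end reads on an Illumina HiSeq instrument from unstranded TruSeq RNA v2 libraries. Per the study's methods and the submitters' processing notes, the authors estimated abundance with Salmon 0.11.2 (quasi-mapping with GC bias correction, GRCm38), summed it to genes with tximport, and divided it by the size factors of DESeq2 1.22.2 in R 3.5.3. The authors deposited this normalized signal for each gene and embryo. The values are not whole read counts, and the depth is not given. Ensembl identifiers were matched to GENCODE M21 for 19469 of 19475 genes.

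Differences were fitted with limma 3.58.1 (R 4.3.3, eBayes with trend) on log2(value + 1) over all 15 embryos, for the 16507 genes whose mean reached 5, with Benjamini–Hochberg correction at 0.05. This scale understates changes of low genes. Single genes were compared by two-sided exact permutation. The genes were the 8 members and, in each list, the 2 with the smallest p against WT mice. For the list genes the permutation reuses the values that chose them. The 3 most similar genes were sought for each member, and of these the leading ones are named. The members, lists, and markers were chosen with earlier results of these data known. The alternatives were other pseudocounts, filters, and scalings, sex, marker scores (the mural score and the meningeal limit of 6 were added after seeing the data), a replicate block, the compared genotypes alone, and each embryo left out.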

Additional observations from a re-analysis of the deposited data

Results flagged for a closer look

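Each member was checked in each genotype for an embryo that stood far from the other 4, in 24 groups of 5 embryos, and chance gives such a group about 1 time in 20. In 2 of the 24 groups an embryo stood apart. *Ilk* in homozygous replicate 5 was the highest of its genotype, at 2622.71 against 2459.28 in the nearest embryo. *Parva* in heterozygous replicate 4 was the lowest of its genotype, at 1294.55 against 1547.61 in the nearest embryo, and this embryo also had the lowest mural marker score (8.25) of the 5 heterozygous embryos.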

How the results depend on the processing

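None of the 7 members other than *Ilk* passed the adjusted threshold in any comparison under any setting. For *Ilk* the values are a description, and its log2 fold change between heterozygous and WT embryos kept its sign in 22 of 22 settings. This is no support for the difference, since these values chose the complex and leaving out embryos could not turn the sign. Over all genes, the count for homozygous embryos against WT went from 21 genes past the threshold to 12 when the 2 genotypes were fitted alone and to between 12 and 21 when embryos were left out in turn. The lowest counts came without WT replicate 1 and without homozygous replicate 3 (12 each), and without WT replicate 2 and homozygous replicate 4 it was 13. Between the mutant genotypes, the count went from 13 to 21 with the Hox score as a covariate and to between 6 and 8 without any one of the 10 embryos. The cause was not tested. For heterozygous embryos against WT the count was 0 in all settings (limma, 295 genes at an unadjusted p under 0.05).

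With the replicate number as a block, the counts were 0 for heterozygous and 16 for homozygous embryos against WT, and 2 between the mutant genotypes. None of the 7 members other than *Ilk* passed with this block. The labels do not say whether the numbers pair the embryos. Of 15 same-numbered pairs, 8 had a correlation of their deviations over 0.1 (from -0.23 to 0.51). In 5 of 15 the same-numbered embryo was the best match. These values neither show nor exclude a pairing. With longest transcripts, 7 of the 8 levels per kb moved by more than 1 SD, that of *Itgb1* excepted. Without centring, 4 member pairs and 23 marker relations passed. The depth of the libraries is unknown. *Lims2* has no value with a minimum mean of 50.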
